A study of Mus musculus with 15 samples.

Results

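Collagen is hydroxylated inside the cell and cross-linked outside it, and 10 genes for enzymes of these steps were followed here across 5 groups of mouse fibroblast cultures. The genes were *Lox*, *Loxl1*, *Loxl2*, *Loxl3* and *Loxl4*, which encode the lysyl oxidases, *Plod1*, *Plod2* and *Plod3*, which encode the lysyl hydroxylases, and *P4ha2* and *P4ha3*, which encode alpha subunits of prolyl 4-hydroxylase. They were chosen by name and not by their values: every probe of the array whose RefSeq transcript belongs to 1 of them was taken, which gave 16 probes for the 10 genes, out of 33767 probes for 23462 named genes. Each gene is described by its brightest probe, and all 10 of these probes were well above background on all 15 arrays.

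The cells were an established line of Mouse Embryonic Fibroblasts (MEFs), Balb/c/3T3 clone A31, so that every group is the same clonal line of cells in culture. Controls were left untreated. The other cultures received TNFα at 10 ng/ml, TGFß1 at 5 ng/ml, IL-1β at 1 ng/ml, or IL-6 at 20 ng/ml together with its soluble receptor sIL-6Rα at 25 ng/ml. The study used TNFα to polarize fibroblasts toward a proinflammatory state and TGFß1 toward a profibrotic state, with a stimulation of 24 h for the arrays of these groups and their controls. The labels of all 15 arrays name both 24 h and 72 h without saying which applies. The 24 h above is the study's own statement, and it gives no time for the IL-1β and IL-6 groups. Each group holds 3 arrays, described for the controls, TNFα and TGFß1 as 3 independent experiments, and arrays are named here after the treatment and the leading number of their label. The 15 arrays lay on 2 slides, 8 on slide 1 (control 1 and 11, TNFα 14, TGFß1 7, IL-1β 5 and 10, IL-6 3 and 8) and 7 on slide 2 (control 6, TNFα 4 and 9, TGFß1 2 and 12, IL-1β 15, IL-6 13).

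Prolyl 4-hydroxylase hydroxylates proline in new collagen chains inside the endoplasmic reticulum, which lets the triple helix hold at body temperature. Lysyl hydroxylases hydroxylate lysine in the same chains, and those hydroxylysines decide which kind of cross-link can form later. Outside the cell, the copper-dependent lysyl oxidases convert lysine and hydroxylysine to aldehydes that join neighbouring collagen or elastin molecules, and more cross-linking is a known feature of fibrotic matrix.

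Promoter sequences of RefSeq (GRCm38.p6) were given for 5 of the 10 genes (*Loxl4*, *Plod1*, *Plod3*, *P4ha2* and *P4ha3*). The 2 printed here belong to *Plod1*, the member with the widest range of group means, and *P4ha2*, which separated TNFα from TGFß1. Each shows the 250 bases before the gene's start, 5′ to 3′ on the strand of the gene, with capitals at every match, on either strand, to the SMAD box CAGAC, the hypoxia response core ACGTG, the GC box GGGCGG or the start of the NF-kB site, GGGACTT. *Plod1* lies on the minus strand, with the window at chr4:147936777-147937026, and *P4ha2* on the plus strand, with the window at chr11:54100674-54100923.
*Plod1*: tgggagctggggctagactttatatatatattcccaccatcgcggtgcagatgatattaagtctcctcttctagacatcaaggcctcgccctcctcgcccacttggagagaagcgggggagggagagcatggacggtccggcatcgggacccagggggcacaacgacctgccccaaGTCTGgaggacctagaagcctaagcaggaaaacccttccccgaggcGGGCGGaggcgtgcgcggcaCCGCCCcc
*P4ha2*: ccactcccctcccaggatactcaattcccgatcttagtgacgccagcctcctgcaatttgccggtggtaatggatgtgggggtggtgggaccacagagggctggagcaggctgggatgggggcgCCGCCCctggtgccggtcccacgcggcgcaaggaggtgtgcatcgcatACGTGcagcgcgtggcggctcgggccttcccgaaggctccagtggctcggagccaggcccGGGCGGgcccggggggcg
The *Plod1* window held 1 match to CAGAC (as GTCTG) and 2 to GGGCGG, and the *P4ha2* window held 1 match to ACGTG and 2 to GGGCGG. Neither window held GGGACTT. Of 32851 promoter windows of the same length, 42.2% held CAGAC, 16.6% ACGTG, 32.7% GGGCGG and 4.65% GGGACTT. Guanine and cytosine made up 61.6% of the *Plod1* window and 70% of the *P4ha2* window, against a median of 52.4% over all windows. A match is a string of letters only and does not show a bound factor.

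Cell type and treatment were checked with marker genes. All 8 fibroblast markers were well above background on all 15 arrays, whereas *Ptprc* and *Adgre1* of leukocytes, *Cdh1* and *Krt5* of epithelium, *Cdh5*, *Kdr* and *Tek* of endothelium and *Ckm* and *Myog* of muscle were above background on none. *Cd68*, *Itgam*, *Cd3e*, *Pecam1* and *Actc1* were above background on all 15 arrays, *Krt18* on 10, *Krt8* on 4, *Krt14* on 3, and *Epcam* and *Myh3* on 1 each. Of 6 known TGFß1 targets 5 rose with TGFß1, of 6 TNFα and IL-1 targets 6 rose with TNFα and 5 with IL-1β, and of 6 IL-6 targets 2 rose with IL-6. These 2 were *Socs3* and *Bcl3*, and *Bcl3* also rose with TNFα and IL-1β. *Jag1*, *Cxcl1*, *Ccl2* and *Icam1* of these checks are in the gene signature that the study built from these same arrays. Their changes with TNFα and TGFß1 are therefore not independent checks. *Col1a1*, *Col5a1*, *Col5a3*, *Pcolce2* and *Fn1*, named below, are in that signature too. As the RNA came from whole cultures, fewer cells of a kind and less RNA per cell cannot be told apart.

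Values below are log2 signals minus the 75th percentile of the array, so that 0 is the 75th percentile, and they compare arrays for 1 probe, not 1 gene with another. A log2 fold-change is a difference between 2 group means of 3 arrays each, given with its standard error (SE). It was called, and is described as a rise or a fall, where limma gave a q-value (Benjamini-Hochberg adjustment over all 29334 probes tested) below 0.05 and the absolute fold-change was at least 1.5. The 4 comparisons with control share the same 3 control arrays. A difference from control within slide 1 sets 1 TNFα or 1 TGFß1 array against 2 controls. Within slide 2 it sets 2 arrays of either cytokine against control 6 alone.

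Treatment by TNFα lowered 2 of the 10 enzymes, *Plod1* and *Loxl1*, and raised none. In that comparison 10.2% of all tested probes were called, 4.12% higher and 6.06% lower. Treatment by TGFß1 raised *Plod2* and *Loxl3* and lowered *Loxl1*, 3 of 10, where 18% of all probes were called, 7.17% higher and 10.8% lower. None of the 10 was called with IL-1β, where 0.252% of all probes were, or with IL-6, where 0.0648% were. The median log2 fold-change of the 10 genes was -0.33 with TNFα, 0.16 with TGFß1, -0.08 with IL-1β and 0.18 with IL-6. That of all tested probes was 0.04, 0.05, 0.00 and 0.00.

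**Figure D1:**
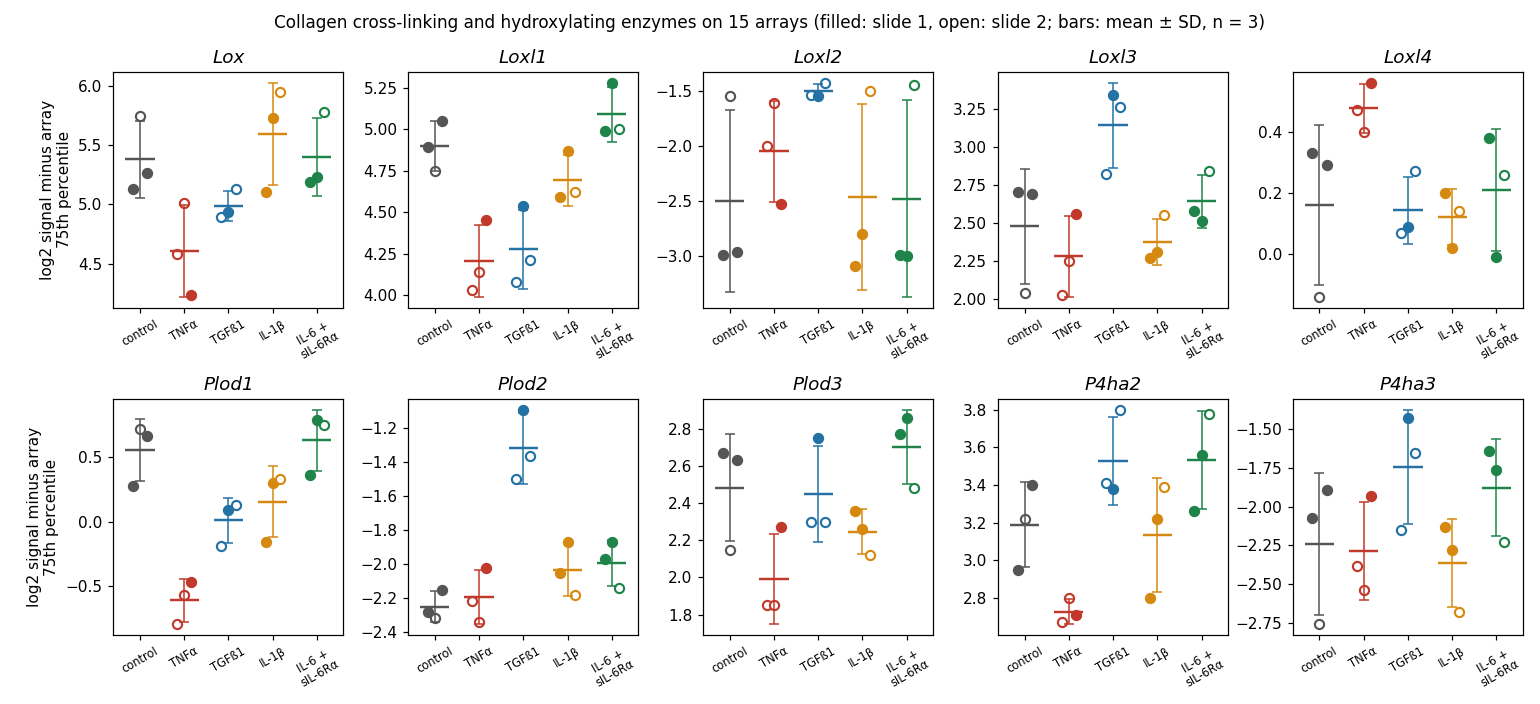
Log2 signal minus the array's 75th percentile (y axis, each panel with its own scale) of the 10 genes in the 5 groups, with 1 point per array (filled for slide 1, open for slide 2) and bars for mean ± SD (n = 3). The 3 TNFα arrays of *Plod1* lie between -0.80 and -0.47, below all other arrays, and the 3 TGFß1 arrays of *Plod2* lie between -1.5 and -1.09, above all other arrays.

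Among the lysyl oxidases, *Loxl1* (NM_010729), the member tied to elastic fibres, was the only 1 called with both cytokines. Its level was 4.89, 4.75 and 5.05 on control 1, 6 and 11. It was 4.03, 4.14 and 4.45 on TNFα 4, 9 and 14, and 4.08, 4.54 and 4.21 on TGFß1 2, 7 and 12. The highest treated array of either cytokine lay below the lowest control. The fall was -0.69 (SE 0.16, q = 0.012) with TNFα and -0.62 (SE 0.16, q = 0.013) with TGFß1, a level 1.62 and 1.54 times below control. The difference between the cytokines was -0.07 (SE 0.16, q = 0.85). With the slide in the model the falls were -0.61 and -0.54, and the second was then under 1.5-fold. Within slide 1 they were -0.52 and -0.43, and within slide 2 -0.67 and -0.61. The call with TNFα was lost without control 11 (-0.62) or TNFα 4 (-0.61), and the call with TGFß1 without control 11 (-0.54) or TGFß1 2 (-0.52).

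*Loxl3* (NM_013586), a lysyl oxidase with roles in craniofacial and cartilage development, rose with TGFß1. Its level was 2.70, 2.04 and 2.69 on control 1, 6 and 11, and 2.82, 3.34 and 3.26 on TGFß1 2, 7 and 12. All TGFß1 arrays lay above all controls, with control 6, on slide 2, the lowest of the 3 controls. The rise was 0.67 (SE 0.21, q = 0.034), a 1.59-fold higher level, and 0.72 (q = 0.017) with the slide in the model, 0.65 within slide 1 and 1.00 within slide 2. The call depended on the fit and on single arrays: q was 0.076 when only the 9 arrays of control, TNFα and TGFß1 entered the fit, and the change was 0.45 without control 6, 0.61 without TGFß1 12 and 0.57 without TGFß1 7, each no longer called. With TNFα the level was 2.03, 2.25 and 2.56 on TNFα 4, 9 and 14, which overlapped the controls (-0.19, SE 0.21, q = 0.60). *Loxl3* is in the gene signature that the study built from these same arrays, so its rise is not independent evidence for that choice.

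*Lox* (NM_010728), the founding lysyl oxidase, had 2 probes that were lower with TNFα. Its brighter probe was 5.13, 5.75 and 5.27 on control 1, 6 and 11, and 4.58, 5.01 and 4.23 on TNFα 4, 9 and 14, with no overlap. This difference, -0.78 (SE 0.26), did not pass the test (q = 0.072). It did with the slide in the model, at -0.93 (q = 0.0043), where 3 of the 10 enzymes and 11.9% of all probes were called. The dimmer probe was 2.73, 2.86 and 2.68 on the controls and 1.81, 2.11 and 1.89 on the TNFα arrays, a fall of -0.82 (SE 0.12, q = 0.0011). With TGFß1 the brighter probe was at 4.89, 4.94 and 5.13, against control -0.40 (SE 0.26, q = 0.30). The dimmer probe was then at 2.14, 2.57 and 2.26, below all controls. This difference of -0.43 (SE 0.12, q = 0.025) was 1.35-fold and so short of the threshold. The order of group means was IL-1β, IL-6, control, TGFß1 and TNFα in both probes. No neighbours in that order differed in the brighter probe, and IL-1β lay above TNFα by 0.99 (SE 0.26, q = 0.045). In the dimmer probe IL-6 lay above TNFα by 0.94 (SE 0.12, q = 0.00037) and IL-1β above TGFß1 by 0.68 (SE 0.12, q = 0.0021). Neither was called in the brighter probe (q = 0.074 and 0.11).

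*Loxl2* (NM_033325), a lysyl oxidase that acts on collagen IV of basement membranes, moved with the slide. Its brighter probe had a median of -2.98 over the 8 arrays of slide 1 (-3.09 to -1.54) and of -1.53 over the 7 arrays of slide 2 (-2.0 to -1.42). Fitted beside the groups, slide 2 lay 1.05 above slide 1 on the log2 scale, a size that 4.66% of the tested probes reached. TGFß1 7 was the exception, at -1.54 on slide 1. With TGFß1 the difference from control was 1.00 (SE 0.52, q = 0.18) and was not called. It was 1.44 within slide 1, where TGFß1 7 was the only TGFß1 array, and 0.07 within slide 2, where control 6 was the only control. The dimmer probe, above background on 11 of 15 arrays, was at -2.86, -1.44 and -3.13 on TGFß1 2, 7 and 12 and at -4.92, -3.46 and -4.46 on control 1, 6 and 11. These groups did not overlap, and the difference of 1.80 (SE 0.84) did not pass the test (q = 0.14). Against TNFα, where 1 of 3 arrays was above background, TGFß1 was higher in this probe (q = 0.015), and the fitted difference of 3.37 includes the other 2 TNFα arrays at background. The other 9 genes had slide differences between -0.56 (*P4ha3*) and 0.46 (*Lox*).

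**Figure D2:**
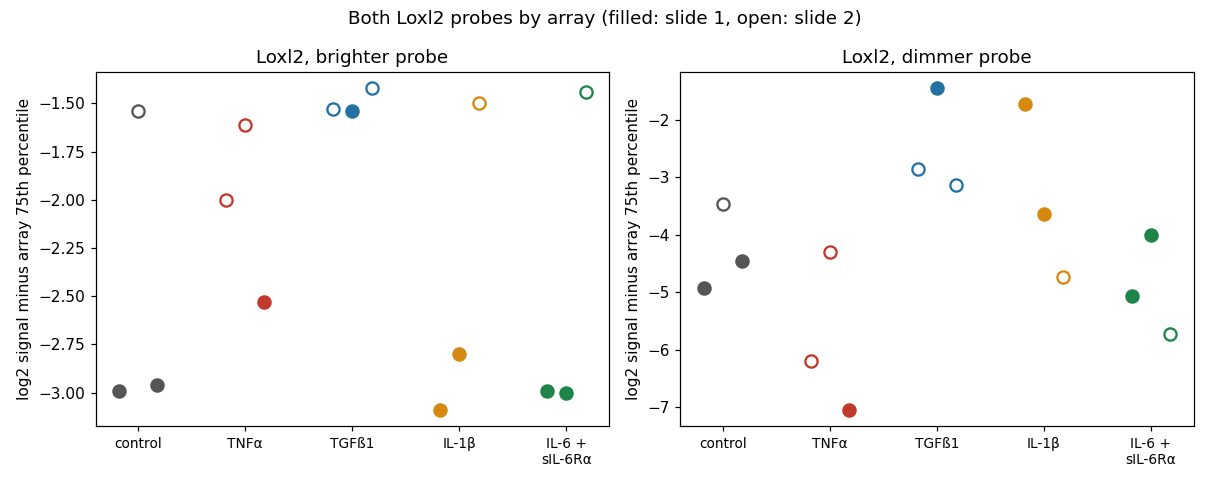
Log2 signal minus the array's 75th percentile (y axis) of both *Loxl2* probes in the 5 groups, with 1 point per array, filled for slide 1 and open for slide 2. In the brighter probe the 7 open points lie between -2.0 and -1.42, and of the 8 filled points 1 (TGFß1 7, -1.54) lies among them. In the dimmer probe filled and open points overlap.

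*Loxl4*, a lysyl oxidase with scavenger receptor domains, was called in no comparison with control. Its brightest probe (NM_001164311) was at 0.33, -0.14 and 0.29 on the controls and at 0.47, 0.40 and 0.56 on the TNFα arrays. These did not overlap, and the difference of 0.32 (SE 0.14) did not pass the test (q = 0.17). In the dimmer probes the TNFα arrays overlapped the controls. Their differences were 0.23 (NM_053083, SE 0.23, q = 0.58) and 0.34 (NM_001164311, SE 0.16, q = 0.19). Over all groups the means of the brightest probe spanned 0.35, the narrowest range of the 10 genes.

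Among the lysyl hydroxylases, *Plod1* (NM_011122), which hydroxylates lysines in the helix of collagen and is mutated in a kyphoscoliotic form of Ehlers-Danlos syndrome, fell with TNFα. Its level was 0.28, 0.72 and 0.67 on control 1, 6 and 11, and -0.80, -0.57 and -0.47 on TNFα 4, 9 and 14. The groups were far apart, and the fall of -1.17 (SE 0.18, q = 0.0012) put the level 2.24 times below control. It was -1.19 with the slide in the model, -0.94 within slide 1 and -1.40 within slide 2, and it stayed called without any 1 array. With TGFß1 the level was -0.19, 0.09 and 0.13 on TGFß1 2, 7 and 12, also below all controls. This difference of -0.55 (SE 0.18, q = 0.044) was 1.46-fold and so short of the threshold, and it was called without control 1, at -0.68. TNFα lay below TGFß1 by -0.62 (SE 0.18, q = 0.035). The order of means was IL-6, control, IL-1β, TGFß1 and TNFα, in which TGFß1 and TNFα were the only neighbours that differed.

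*Plod2* (NM_011961), the lysyl hydroxylase of the collagen telopeptides and the source of the pyridinoline cross-links that mark fibrosis, rose with TGFß1 and was called with no other treatment. Its level was -2.28, -2.32 and -2.15 on control 1, 6 and 11, and -1.5, -1.09 and -1.36 on TGFß1 2, 7 and 12. All TGFß1 arrays were higher than every other array of the series. The rise was 0.93 (SE 0.14, q = 0.00045), a 1.91-fold higher level, with 1.01 when the slide was in the model, 1.12 within slide 1 and 0.89 within slide 2. It stayed called without any 1 array. With TNFα the level was -2.22, -2.34 and -2.02, a difference of 0.06 (SE 0.14, q = 0.82). TGFß1 lay above the next group in the order of means, IL-6, by 0.68 (SE 0.14, q = 0.0039), above IL-1β by 0.71 (q = 0.0029) and above TNFα by 0.87 (q = 0.00074), and no other neighbours differed.

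*Plod3* (NM_011962), which also transfers sugars to hydroxylysine, had 2 probes and was called in no comparison with control. Its brighter probe was at 1.85, 1.85 and 2.27 with TNFα against 2.67, 2.15 and 2.63 in controls, a difference of -0.49 (SE 0.18, q = 0.10). The dimmer probe gave -0.61 (SE 0.22, q = 0.094). IL-6 lay above TNFα by 0.72 (SE 0.18, q = 0.026) in the brighter and by 0.79 (SE 0.22, q = 0.037) in the dimmer probe.

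Of the prolyl hydroxylase subunits, *P4ha2* (NM_011031) had opposite signs with TNFα and TGFß1, neither called against control. Its level was 2.95, 3.22 and 3.40 on control 1, 6 and 11, 2.67, 2.80 and 2.71 on TNFα 4, 9 and 14, and 3.41, 3.38 and 3.80 on TGFß1 2, 7 and 12. The TNFα arrays lay below all controls, by -0.47 (SE 0.19, q = 0.13), whereas the TGFß1 arrays overlapped the controls (0.34, SE 0.19, q = 0.21). Between TNFα and TGFß1 the difference was -0.80 (SE 0.19, q = 0.010), a level 1.74 times lower with TNFα.

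*P4ha3* (NM_177161), the third alpha subunit, was at -2.15, -1.43 and -1.65 with TGFß1 and at -2.07, -2.76 and -1.89 in controls. These arrays overlapped, and the difference of 0.50 (SE 0.27) did not pass the test (q = 0.21). Adding the slide to the model gave 0.68 (q = 0.0025), which was called as were 20.1% of all probes, and it was 0.55 within slide 1 and 0.86 within slide 2. Its dimmer probe gave 0.40 (SE 0.32, q = 0.39).

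**Figure D3:**
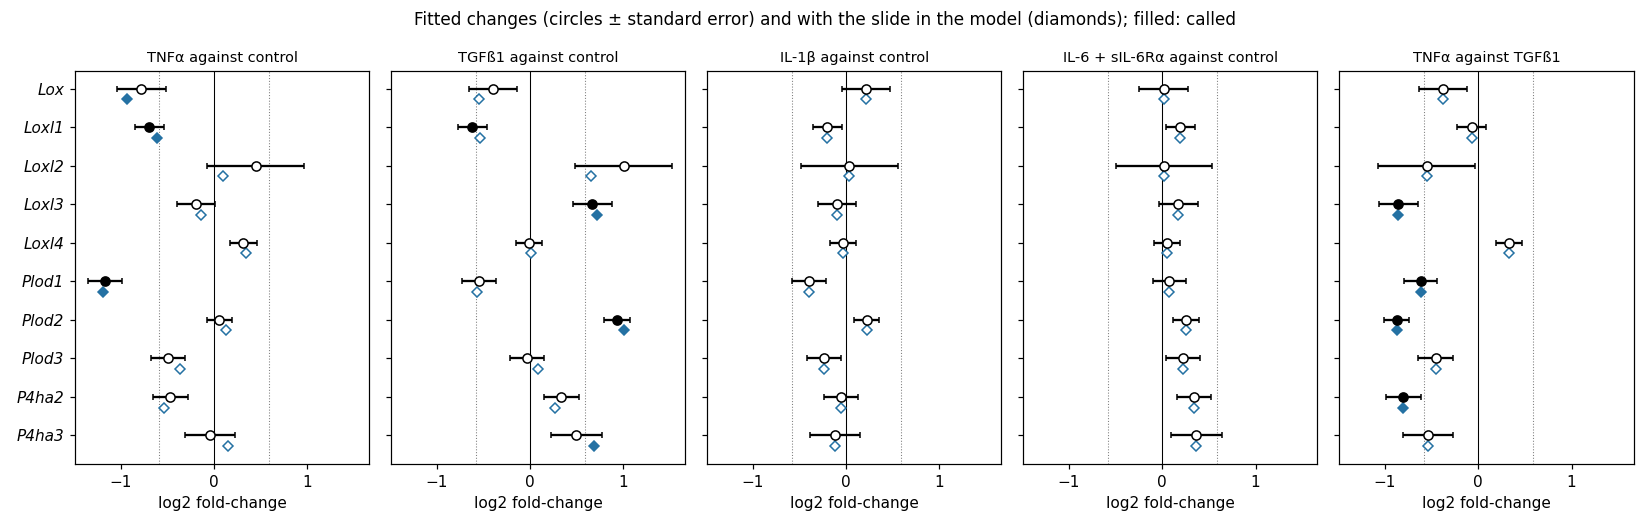
Log2 fold-change (x axis) of each gene (y axis) in 5 comparisons, with circles ± standard error from the model of 5 groups and diamonds from the model with the slide added, filled where called. Dotted lines mark a fold-change of 1.5. With TNFα the filled circles are *Loxl1* and *Plod1*, with TGFß1 *Loxl1*, *Loxl3* and *Plod2*, and with IL-1β and IL-6 there is none.

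In the direct comparison of TNFα with TGFß1, 4 of 10 enzymes were lower with TNFα, namely *Plod2* (-0.87), *Loxl3* (-0.86, SE 0.21, q = 0.013), *P4ha2* and *Plod1*, and none was higher. In this comparison 11.8% of all probes were called, 5.02% lower with TNFα. Of the 10 genes 9 had a negative sign, *Loxl4* (0.33, SE 0.14, q = 0.15) being the exception, and their median was -0.55 against -0.02 for all probes. The arrays of the groups did not overlap for 7 of the 10 genes, where this held for 34.7% of all probes. Against control it held for 5 of 10 with TNFα (29.6% of all probes) and for 4 of 10 with TGFß1 (39.1%). The count of 4 rested on single arrays: without TGFß1 12 only *Plod2* was called, and without TGFß1 7 or TNFα 4 only *Plod2* and *P4ha2*.

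IL-1β and IL-6 gave small differences from control throughout. With IL-1β they lay between -0.40 (*Plod1*, SE 0.18) and 0.22 (*Plod2*, SE 0.14), and 1 of 10 had an unadjusted p below 0.05 in limma. With IL-6 all 10 were positive by the brightest probe, between 0.02 (*Lox*, SE 0.26) and 0.37 (*P4ha3*, SE 0.27), and none had an unadjusted p below 0.05. These intervals do not show that the enzymes were unaffected. The shared sign with IL-6 did not hold throughout. The dimmer *Loxl2* probe was at -0.65 (SE 0.84), while the dimmer probes of other genes were positive. *Lox*, *Loxl2*, *Loxl3*, *Loxl4* and *Plod1* each turned negative in at least 1 alternative. Between IL-1β and IL-6 none was called, where 0.419% of all probes were.

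The IL groups were also compared with TNFα and TGFß1, by the brightest probe of each gene. IL-1β was higher than TNFα in *Lox* and *Plod1* (0.77, SE 0.18, q = 0.027), 2 of 10, where 4.83% of all probes were called, 3.11% higher with IL-1β. IL-6 was higher than TNFα in 4 of 10, *Plod1* (1.24, SE 0.18, q = 0.00078), *Loxl1* (0.89, SE 0.16, q = 0.0031), *P4ha2* (0.81, SE 0.19, q = 0.014) and *Plod3*, where 8.68% of all probes were called, 5.19% higher with IL-6. IL-1β was lower than TGFß1 in *Loxl3* (-0.77, SE 0.21, q = 0.019) and *Plod2*, 2 of 10, where 17% of all probes were called, 6.29% lower with IL-1β. IL-6 differed from TGFß1 in 3 of 10, lower in *Plod2* and higher in *Loxl1* (0.81, SE 0.16, q = 0.0031) and *Plod1* (0.62, SE 0.18, q = 0.027), against 16.4% of all probes. With the slide in the model, 5 of 10 were called between IL-6 and TNFα (10.4% of all probes), with *Lox* added. Between IL-1β and TGFß1 it was 4 of 10 (19.6%), with *Lox*, higher, and *P4ha3*, lower, added. The other counts stayed at 2 for IL-1β and TNFα (6.21%) and 3 for IL-6 and TGFß1 (19%).

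The enzymes were set beside 4 lists of related genes, the last of them hypoxia-response genes. Of the collagen and elastin substrates, *Eln*, the elastin gene, was above background on no array and was not tested. The collagen genes of that list moved furthest with TNFα: of 7 tested genes 5 fell and 1 rose, with a median of -0.89. The falls were led by *Col3a1* (-2.17, SE 0.44, q = 0.0066), the chain of collagen III, and *Col5a1* (-1.22, SE 0.26, q = 0.0093), a chain of the collagen V that sets fibril width, and the rise was that of *Col5a3* (1.5, SE 0.30, q = 0.0060). With TGFß1 2 of 7 rose and none fell, with a median of 0.26. *Col5a3* went from 0.34, 1.64 and 0.55 in controls to 4.09, 4.09 and 4.22 with TGFß1, a rise of 3.29 (SE 0.30, q = 1.6e-05), and *Col5a1* rose by 0.79 (SE 0.26, q = 0.045).

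Of 15 tested collagen-modifying enzymes and chaperones of the endoplasmic reticulum, 3 fell with TNFα (median -0.35) and 2 rose with TGFß1 (median 0.22). *Creb3l1*, a transcription factor that activates collagen genes, moved both ways, from 0.81, 0.54 and 1.46 in controls to -0.36, -0.46 and -0.03 with TNFα and to 2.36, 2.75 and 2.55 with TGFß1. That is a fall of -1.22 (SE 0.21, q = 0.0022) and a rise of 1.62 (SE 0.21, q = 0.00019). *Fkbp14*, a prolyl isomerase of collagen, fell with TNFα (-0.86, SE 0.18, q = 0.0069). *Fkbp10*, an isomerase that assists lysyl hydroxylation of telopeptides, rose with TGFß1 (0.61, SE 0.14, q = 0.0078), the same direction as *Plod2*. *P4ha1*, the main alpha subunit of prolyl 4-hydroxylase, is named for its role and not for its change, and was not called with TNFα (-0.53, SE 0.19, q = 0.098) or TGFß1 (-0.04, SE 0.19, q = 0.89).

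Of 14 tested activators and partners of the lysyl oxidases, 3 fell with TNFα (median -0.31), and 4 rose and 1 fell with TGFß1 (median 0.23). *Tll1*, a protease of the family that cuts lysyl oxidase propeptides, was at -4.60, -7.82 and -4.75 in controls, 2 of 3 above background, and at 0.77, 0.54 and 0.31 with TGFß1. This was a rise (q = 0.00061), whose fitted size of 6.26 includes the control array at background. *Pcolce2*, an enhancer of procollagen processing, rose by 5.78 (SE 0.73, q = 0.00018). *Fmod*, a proteoglycan that guides lysyl oxidase on collagen fibrils, fell with TNFα by -3.31 (SE 0.47, q = 0.00063), with 2 of 3 TNFα arrays above background. *Fbln5*, which brings LOXL1 to elastic fibres, fell with TNFα (-0.82, SE 0.21, q = 0.020) and with TGFß1 (-1.06, SE 0.21, q = 0.0029), as *Loxl1* did.

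Several of the enzymes are known hypoxia targets, so 12 hypoxia-response genes were followed as well. With TNFα 1 rose and 4 fell (median -0.31), and with TGFß1 2 rose and 3 fell (median -0.13). *Vegfa* rose with TGFß1 by 4.09 (SE 0.38, q = 2e-05) and with TNFα by 1.30 (SE 0.38, q = 0.044). *Slc2a1*, a glucose transporter, rose with TGFß1 (0.61, SE 0.10, q = 0.00094). *Adm* fell with TGFß1 (-3.11, SE 0.44, q = 0.00038), and *Pdk1*, a brake on mitochondrial pyruvate use, fell with both (-1.30 and -1.26, SE 0.16). The list thus held called genes in both directions with both cytokines. None of the 4 lists had a called gene with IL-1β or IL-6.

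**Figure D4:**
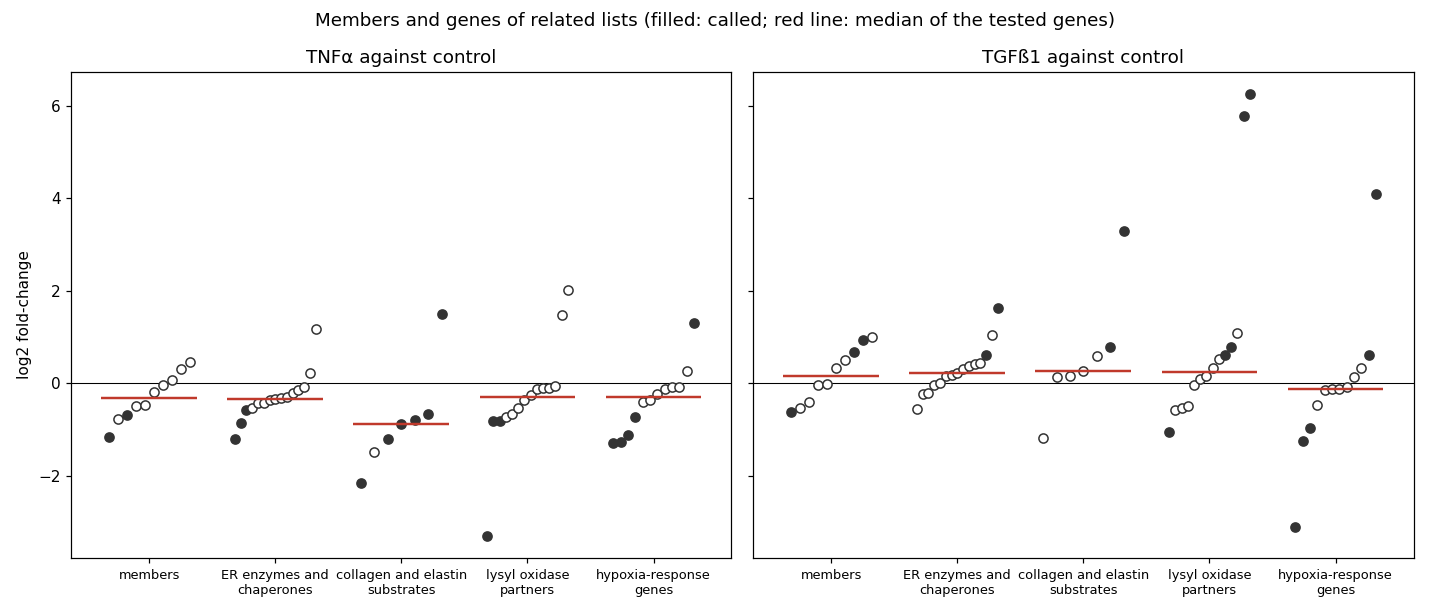
Log2 fold-change against control (y axis) of the 10 enzymes and of the genes of 4 related lists (x axis) with TNFα (left) and TGFß1 (right), filled where called, with a red line at the median of the tested genes. Medians lie at -0.33 for the 10 enzymes, -0.89 for the substrates and between -0.35 and -0.31 for the other lists with TNFα, and between -0.13 and 0.26 with TGFß1.

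Markers of the cell type moved beside these changes. The level of the 8 fibroblast markers was summed in multiples of the array's 75th percentile. It was 1175 to 1372 on the controls and 802 to 990 on the TNFα arrays. *Col1a1*, *Col1a2* and *Thy1* fell with TNFα. *S100a4*, the largest term of the sum, had a mean log2 level of 9.08 in controls and 8.44 with TNFα, which was not called. The sum was 1095 to 1465 with TGFß1, where *Pdgfra* fell by 2.0 and *S100a4* by 0.75 on the log2 scale, while *Fn1* rose by 0.79 and *Pdgfrb* by 0.66. The 6 epithelial markers summed to 0.0803 to 0.16 on the controls, to 0.0576 to 0.0749 with TNFα and to 0.163 to 0.422 with TGFß1, where *Krt8* was at least 3.32-fold higher (q = 0.018) than in controls, in which no array was above background, while *Cdh1* and *Krt5* were at background on all arrays. *Krt18* was higher than control by 1.77 on the log2 scale with TGFß1, which was not called (q = 0.18). The 4 muscle markers summed to 2.29 to 5.23 on the controls, to 6.33 to 10.3 with TNFα and to 4.56 to 13.3 with TGFß1. *Actc1*, a sarcomeric actin, was higher by 1.18 with TNFα (q = 0.31) and by 1.11 with TGFß1 (q = 0.26), neither of them called, while *Ckm* and *Myog* were at background on all arrays. The part of these shifts in the changes of the 10 enzymes was not tested.

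For the lysyl oxidase and the hydroxylase with the widest range of group means, the 5 genes with the most similar pattern over the 15 arrays were taken from 13477 genes by Pearson's r. For *Plod1* (range 1.24) they were *Megf6* (r = 0.981), *Tango2* (0.965), *Gabarap* (0.964), *Msrb1* (0.964) and *Aoc3* (0.960). Of these, *Megf6*, *Gabarap* and *Aoc3* were called lower with TNFα, and *Megf6* was above background on no TNFα array, at least 9.44-fold below control (q = 0.00031). *Megf6* and *Aoc3* were also called lower with TGFß1, with log2 fold changes of -2.82 (q = 0.0078) and -1.78 (q = 0.022). For *Loxl2* (range 1.00) they were *E430016F16Rik* (r = 0.949), *Lalba* (0.949), *Asphd1* (0.945), *Gm11240* (0.942) and *Ifnl3* (0.938). None of those 5 was called with TNFα or TGFß1, and all 5 were higher on slide 2 than on slide 1, by 0.50 to 1.03. These correlations describe arrays that share groups and slides and carry no test. As the genes were chosen by their likeness to the enzyme, their calls and slide differences follow in part from that choice.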

How the data were processed

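The authors hybridized Cyanine 3-labelled RNA to 1-color Agilent arrays and extracted spots with Agilent Feature Extraction 10.7.3.1, as the submitters' processing notes name it. The deposited intensity per spot is the processed signal, after background subtraction, not normalized between arrays. The deposited series-wide table repeats these signals (largest difference 0). The number of arrays limits the precision.

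From these, spots marked as outliers were left out, log2 intensities of a probe's spots were averaged, and each array was centred on the 75th percentile of its non-control spots (508 to 683 in signal). Per array, 48.3% to 54.9% of 56605 probes were well above background and no spot was saturated. The 29334 probes that passed this mark on all 3 arrays of some group were tested with limma 3.58.1 in R 4.3.3 (with statmod 1.5.0 and, to read files, version 1.17.8 of data.table) in 1 model of 5 group means over 15 arrays, which was tested on simulated data first, with two-sided moderated tests and Benjamini-Hochberg adjustment over all tested probes. A probe was called at q below 0.05 with a fold-change of at least 1.5. P-values set a difference against the spread of arrays within groups, pooled over the 5 groups and drawn toward that of all tested probes.

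Groups came from the labels, and probes were named through a RefSeq table of GRCm38.p6. The brightest probe over the 15 arrays stands for a gene. All 10 enzymes are named, and of each list the 2 largest called rises and falls against control. The 10 genes, the lists and the tests were chosen with earlier results of these data known. A fold-change written as "at least" has a group with no array above background, and was set against the dimmest signal well above background on each array. Alternatives were quantile normalization, median centring, normexp background correction, no filter and a stricter filter, the slide, the run of label numbers or both as blocks, fewer arrays in the model, another variance model, outlier spots kept, the mean of all probes, the values of the series-wide file, a fold-change of 2, and leaving out each array in turn. Normexp with an offset of 50 used the median signal, since the files used here hold no mean signal column.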

Additional observations from a re-analysis of the deposited data

How the results depend on the processing

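The comparisons with control and that of TNFα with TGFß1 were recomputed under 14 alternatives in the processing, 1 of which fitted only the arrays of the groups compared. They were also recomputed with each of the 15 arrays left out in turn. For the enzymes in the other pairs of cytokines, no check by leaving out arrays is given. With a fold-change of at least 2 the count of called enzymes was 1 with TNFα (*Plod1*), 0 with TGFß1 and 0 between TNFα and TGFß1. Of all 29334 tested probes, 1589, 2684 and 2095 were called under that rule in these comparisons. Without 1 array the counts of enzymes ranged from 1 to 3, from 2 to 4 and from 1 to 4 in these comparisons. Of all 29360 to 29907 probes tested in those fits, 1896 to 3043, 4074 to 5489 and 2832 to 3611 were called. With IL-1β and IL-6 the counts of enzymes stayed at 0, where 36 to 78 and 5 to 22 of all probes were called. The count with TNFα was 1 without control 11 or TNFα 4, each of which ended the call of *Loxl1*. The count between TNFα and TGFß1 was 1 without TGFß1 12, and 2 without TGFß1 7 or TNFα 4. *Plod1* with TNFα was called in every alternative, and *Plod2* with TGFß1 in all but a fold-change of 2. *Loxl3* with TGFß1 was not called with quantile normalization (0.57), where it was under 1.5-fold, or without a filter (q = 0.078). *Plod1* between TNFα and TGFß1 was not called with normexp (-0.55), without a filter (q = 0.086), or without any 1 of 5 arrays, the 3 TNFα arrays and TGFß1 7 and 12. *Loxl1* with TGFß1 was not called with the slide (-0.54) or with slide and run (-0.53) as blocks, where it was under 1.5-fold. Gains with TNFα were *Lox* (slide, run, both, mean of probes, or without TNFα 9 or IL-1β 5) and *Plod3* (-0.66 without control 6). Gains with TGFß1 were *P4ha3* (slide, or slide and run), *Loxl2* (slide and run, 0.66, or mean of probes, 1.4) and *Plod1* (-0.68 without control 1). Between TNFα and TGFß1 the gain was *Loxl2* (mean of probes, -1.96). Of 50 values of 10 enzymes in 5 comparisons, 9 were called, none of which changed sign in any alternative, and 35 were called in no alternative, of which 16 changed sign in at least 1. The cause of these shifts was not tested. Each label number belongs to 1 array, and the labels do not say whether arrays are paired. The runs of numbers 1 to 5, 6 to 10 and 11 to 15 hold 1 array of each group, so a pairing by run is possible. These runs were fitted as a block, alone and with the slide, although the labels do not say that they mark an experiment. The main model leaves the run out. It called 2986 probes with TNFα, 5283 with TGFß1, 74 with IL-1β and 19 with IL-6. With the run as a block these counts were 3874, 5997, 163 and 68. Dim probes limit *Loxl2*, whose second probe was above background on 11 of 15 arrays.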
